A study of Mus musculus with 9 samples.

Results

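Enteroendocrine cells are scattered hormone-secreting cells of the gut epithelium, and 10 genes that mark them were followed here in the mouse colon: *Chga*, *Chgb*, *Gcg*, *Pyy*, *Insl5*, *Sst*, *Sct*, *Cck*, *Tph1* and *Neurod1*. The rule takes them by symbol and uses no measured value, and all 10 were found among the 27719 genes of the deposited count table. Colon RNA came from C57BL/6J mice in 3 groups of 3 mice, with 1 Nanopore cDNA library per mouse. The control group drank distilled water and was held for 30 minutes without electroacupuncture (EA). The DSS group drank 2.5% dextran sodium sulfate, which injures the colon epithelium, for 7 days and was held in the same way. The DSS + EA group drank the same DSS and, after 5 days of modeling, received EA at ST36 of both hind limbs, once a day for 5 days, for 30 minutes at 2 Hz and 0.2 mA. Age is not given in the sources used here, and a group held without DSS but with EA is not among the 3 groups, so an effect of EA is seen here only on top of DSS.

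Each enteroendocrine cell takes up cues from the gut lumen and releases peptide hormones or serotonin from dense-core granules. In the colon, L cells make proglucagon, the product of *Gcg* and the source of glucagon-like peptides, together with peptide YY (*Pyy*) and insulin-like peptide 5 (*Insl5*). Enterochromaffin cells make serotonin through tryptophan hydroxylase 1 (*Tph1*), and D cells make somatostatin (*Sst*), which restrains the release of other hormones. The granins encoded by *Chga* and *Chgb* are packed into granules of most of these cells. Secretin (*Sct*) and cholecystokinin (*Cck*) are better known from the small intestine but are also expressed in the colon, and *Neurod1* encodes a transcription factor of cells that are committed to the endocrine fate.

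The 10 genes are protein-coding in GENCODE M21 on GRCm38. *Gcg* lies at chr2:62474530-62483650, *Neurod1* at chr2:79452521-79456751 and *Sst* at chr16:23889573-23890958, all on the minus strand. *Chgb* lies at chr2:132781278-132795079 and *Chga* at chr12:102554969-102565028, both on the plus strand. *Insl5* (chr4:103017872-103026842), *Tph1* (chr7:46644641-46672537), *Sct* (chr7:141278330-141279133), *Cck* (chr9:121489824-121495694) and *Pyy* (chr11:102106676-102107832) are on the minus strand. Of the 10, only *Neurod1* overlaps other annotated genes, *Cerkl* on the same strand and the long non-coding RNA gene *Gm26755* on the opposite strand. The use of strand in counting is not given in the sources used here, so the few *Neurod1* counts could include reads of those genes.

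The promoters of 4 members are shown because *Chga* and *Chgb* kept close to each other in these libraries, while *Gcg* and *Sct* were the members that fell in the DSS group. Each window runs from 250 bases before to 50 bases after the start of the gene in RefSeq (GRCm38.p6), written 5' to 3' on the strand of the gene. Capitals mark TGACG, the core of the cAMP response element, in *Chga* and *Chgb*, and CAGATG, an E-box of the kind that NEUROD1 and related factors bind, in *Gcg* and *Sct*. Both strands were searched.
*Chga* (chr12:102554691-102554990, plus strand): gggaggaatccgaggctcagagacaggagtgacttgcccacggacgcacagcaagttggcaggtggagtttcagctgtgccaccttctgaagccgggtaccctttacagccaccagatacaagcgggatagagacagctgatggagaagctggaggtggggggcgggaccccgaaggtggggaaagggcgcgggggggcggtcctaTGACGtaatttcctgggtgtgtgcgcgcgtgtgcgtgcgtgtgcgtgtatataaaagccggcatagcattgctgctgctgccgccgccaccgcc
*Chgb* (chr2:132781392-132781691, plus strand): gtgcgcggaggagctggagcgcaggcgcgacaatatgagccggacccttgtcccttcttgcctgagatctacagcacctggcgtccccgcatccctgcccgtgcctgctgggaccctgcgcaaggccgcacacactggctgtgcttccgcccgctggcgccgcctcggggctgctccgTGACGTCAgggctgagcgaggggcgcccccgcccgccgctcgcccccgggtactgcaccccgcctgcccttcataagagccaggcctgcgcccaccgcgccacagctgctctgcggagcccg
*Gcg* (chr2:62483604-62483903, minus strand): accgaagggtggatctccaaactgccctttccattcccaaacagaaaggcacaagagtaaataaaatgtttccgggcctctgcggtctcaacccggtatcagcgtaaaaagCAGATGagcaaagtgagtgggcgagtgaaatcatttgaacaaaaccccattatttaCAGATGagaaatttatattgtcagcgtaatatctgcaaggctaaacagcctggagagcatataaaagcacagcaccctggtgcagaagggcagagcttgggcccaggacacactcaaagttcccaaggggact
*Sct* (chr7:141279084-141279383, minus strand): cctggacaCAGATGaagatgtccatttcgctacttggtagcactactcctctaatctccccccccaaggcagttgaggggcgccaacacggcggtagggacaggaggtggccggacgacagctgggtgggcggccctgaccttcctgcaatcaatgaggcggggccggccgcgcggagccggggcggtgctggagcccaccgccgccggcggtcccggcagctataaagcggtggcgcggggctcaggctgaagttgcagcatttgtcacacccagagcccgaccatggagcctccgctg
The whole element TGACGTCA, which contains TGACG on either strand, stood 72 bases before the start of *Chgb* and 48 bases before that of *Sst*, and 1.79% of 32851 promoter windows hold it. TGACG stood in the windows of 5 of the 10 members, which were *Chga*, *Chgb*, *Sst*, *Cck* and *Tph1*, against 20.8% of all windows. CAGATG stood 139 and 83 bases before the start of *Gcg* and 242 bases before that of *Sct*. It was found in 3 of the 10 members, the third being *Cck*, against 17.2% of all windows. Distances are counted from the RefSeq starts, which for *Chgb* and *Sst* lie inside the genes as placed by GENCODE M21 above. The whole elements of these genes therefore lie downstream of their GENCODE starts. These matches describe the letters of the windows only.

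Between 2627695 and 4235576 counts were assigned to genes per mouse, and 3 counts corresponded to between 0.652 and 1.15 CPM (counts normalized to library totals after TMM adjustment). The floor of 3 counts covers counting error only, since PCR copies were not told apart, whereas the standard errors and intervals of fold changes include the spread between mice. The 12 markers of epithelium, such as *Lgals4*, were present in every library, but their summed level varied widely within the DSS group, at 11034 CPM in mouse 1, 4652 CPM in mouse 2 and 2680 CPM in mouse 3. It lay between 11236 and 12403 CPM in the control group and between 10341 and 11356 CPM in the DSS + EA group. The 16 markers of enteric neurons summed to 118 to 133 CPM in the control group, 195 to 213 CPM in the DSS group and 78.7 to 112 CPM in the DSS + EA group. Pancreatic acinar enzymes took 4.50% of all counts in DSS + EA mouse 2 and 1.89% in DSS + EA mouse 3. Without *Clps*, which was counted 659 to 2109 times in the controls, the other 14 acinar markers in the table had 0 to 7 counts in each control library and 0 to 6 counts in each DSS library. The insulin gene *Ins2*, a defining marker of pancreatic islets, had 0 counts in the control and DSS libraries and in DSS + EA mouse 1, 2 counts in DSS + EA mouse 2 and 21 counts in DSS + EA mouse 3. In whole colon RNA, fewer cells of a type and less RNA per cell cannot be told apart.

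**Figure D1:**
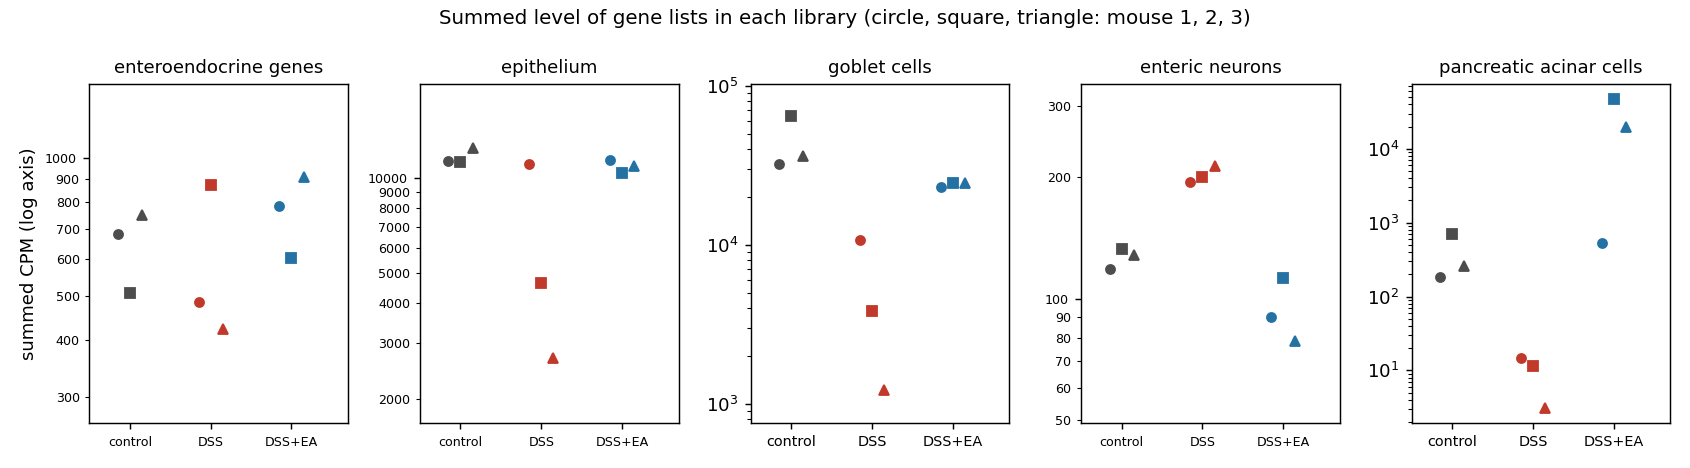
Summed CPM (log axis) of the 10 enteroendocrine genes and of 4 marker lists in each mouse, with circles, squares and triangles for mice 1, 2 and 3 of each group. The epithelial and goblet markers of the DSS mice were spread widely, with mouse 1 highest and mouse 3 lowest, the enteric neuron markers were highest in the DSS group, and the acinar markers were high in DSS + EA mice 2 and 3, while the enteroendocrine genes summed to between 422 and 907 CPM in all 9 mice.

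Compared with the control group, *Gcg* and *Sct* fell in the DSS group, by 0.997 and 1.80 on the log2 scale, and none of the other 8 members passed the test. Calls rest on the quasi-likelihood test of edgeR over 12566 genes with Benjamini-Hochberg adjustment, at an adjusted p under 0.05. The 2 members called make up a smaller share of the 10 than the 40.9% of all genes tested that were called in this comparison. No member met the study's rule for a DEG (a log2 fold change beyond 2.5 and an unadjusted P under 0.01), which 10.2% of all genes tested met. The median log2 fold change of the members was -0.30, against 0.02 over all genes tested. Without DSS mouse 2 it was -0.95, against -0.02.

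*Gcg* was counted 525, 333 and 441 times in control mice 1, 2 and 3, and 295, 323 and 134 times in DSS mice 1, 2 and 3. After scaling, every DSS mouse (41.8 to 94.9 CPM) was below every control mouse (111 to 169 CPM). The means were 138 ± 29.4 CPM (SD, n = 3) and 69.0 ± 26.6 CPM (SD, n = 3), a log2 fold change of -0.997 (SE 0.30, edgeR adjusted p = 0.0233). The call was lost when control mouse 1 or 3 or DSS mouse 2 or 3 was left out, with fold changes between -1.05 and -0.74 and edgeR adjusted p-values of 0.0511 to 0.0823.

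*Sct*, the secretin gene, had the largest fall of the 10. It was counted 255, 117 and 264 times in the control mice and 52, 150 and 28 times in the DSS mice. Its level was 68.3 ± 31.3 CPM (SD, n = 3) in control mice and 19.4 ± 12.1 CPM (SD, n = 3) in DSS mice, without overlap, since DSS mouse 2 at 32.6 CPM stayed below control mouse 2 at 38.9 CPM. This was a 3.48-fold lower level (log2 fold change -1.80, SE 0.47, edgeR adjusted p = 0.0124). Beside both falls, 6 of the 12 epithelial markers also fell, and the median of the 12 log2 fold changes was -1.16.

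*Pyy* and *Insl5*, the other L-cell peptides, did not fall with *Gcg* beyond the error. *Pyy* was counted 733, 525 and 333 times in the control mice and 669, 1674 and 628 times in the DSS mice. All DSS mice (196 to 364 CPM) were above all control mice (128 to 186 CPM), but the log2 fold change of 0.67 (SE 0.31) did not pass the test (edgeR adjusted p = 0.112), with a 95% interval from -0.03 to 1.36. *Insl5*, the peptide typical of distal colon L cells, was counted 97, 58 and 26 times in the control mice and 35, 84 and 25 times in the DSS mice. Its groups overlapped (log2 fold change -0.53, SE 0.45, edgeR adjusted p = 0.376). The lowest control value of *Insl5*, 9.96 CPM in mouse 3, came from the library in which *Hoxb13*, a gene of the distal end of the colon, was counted 131 times against 810 and 759 times in control mice 1 and 2. Of the 7 such position markers in the table, only 1 had enough counts to be tested. In the library of control mouse 3, *Hoxd9*, *Hoxd11*, *Hoxd12* and *Hoxd13* were also at their lowest control values, 0.383 CPM each. *Hoxa13* and *Hoxd10* went the other way, with their highest control values there, 3.83 and 1.53 CPM. The part of colon position in the spread of *Insl5* was not tested.

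The granins and *Tph1* had no called difference, and their spread within the DSS group was large. *Chga* was counted 287, 120 and 274 times in the control mice and 104, 438 and 160 times in the DSS mice (log2 fold change -0.28, 95% interval -1.21 to 0.65). *Chgb* was counted 567, 261 and 442 times in the control mice and 253, 1066 and 267 times in the DSS mice (log2 fold change -0.01, 95% interval -0.90 to 0.88). In both genes DSS mouse 2 stood above the other DSS mice, and in *Chgb* above every control mouse. *Tph1*, the enzyme of gut serotonin synthesis, was counted 98, 46 and 95 times in the control mice and 28, 148 and 45 times in the DSS mice (log2 fold change -0.45, SE 0.45, edgeR adjusted p = 0.450). Without DSS mouse 2 its log2 fold change was -1.12 (edgeR adjusted p = 0.0497), so that this library decided the call. *Tph1* is also a gene of mast cells, whose 12 markers summed to 19.9 to 39.9 CPM over the 9 libraries, with *Cpa3* at 0 to 3 counts. That sum joins opposite moves of the 3 markers tested in DSS against control. *Kit* made up most of the sum in the control group, with a mean of 24.4 CPM where the sums were 23.6 to 33.0 CPM. The mean of *Kit* fell to 6.39 CPM in the DSS group, and that of *Hdc* rose from 0 to 12.3 CPM. *Cma1*, at 1.45 and 4.27 CPM, was not called. The part of mast cells in the values of *Tph1* was not tested.

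*Sst* showed the closest values. It was counted 93, 50 and 60 times in the control mice and 66, 92 and 55 times in the DSS mice, at 21.1 ± 3.88 and 19.5 ± 2.08 CPM (SD, n = 3 each), with a log2 fold change of -0.12 (95% interval -0.75 to 0.52). *Cck* was counted 16, 9 and 13 times in the control mice and 0, 30 and 8 times in the DSS mice. *Neurod1* was counted 8, 5 and 4 times in the control mice and 3, 17 and 2 times in the DSS mice. At these depths the 95% intervals of the log2 fold changes were wide, from -2.14 to 1.51 for *Cck* and from -1.29 to 1.50 for *Neurod1*. Differences of a size within these intervals could not be told apart from no difference. DSS mouse 2 held the highest CPM of its group in 8 of the 10 members, the exceptions being *Gcg* and *Sst*, which were highest in DSS mouse 1.

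**Figure D2:**
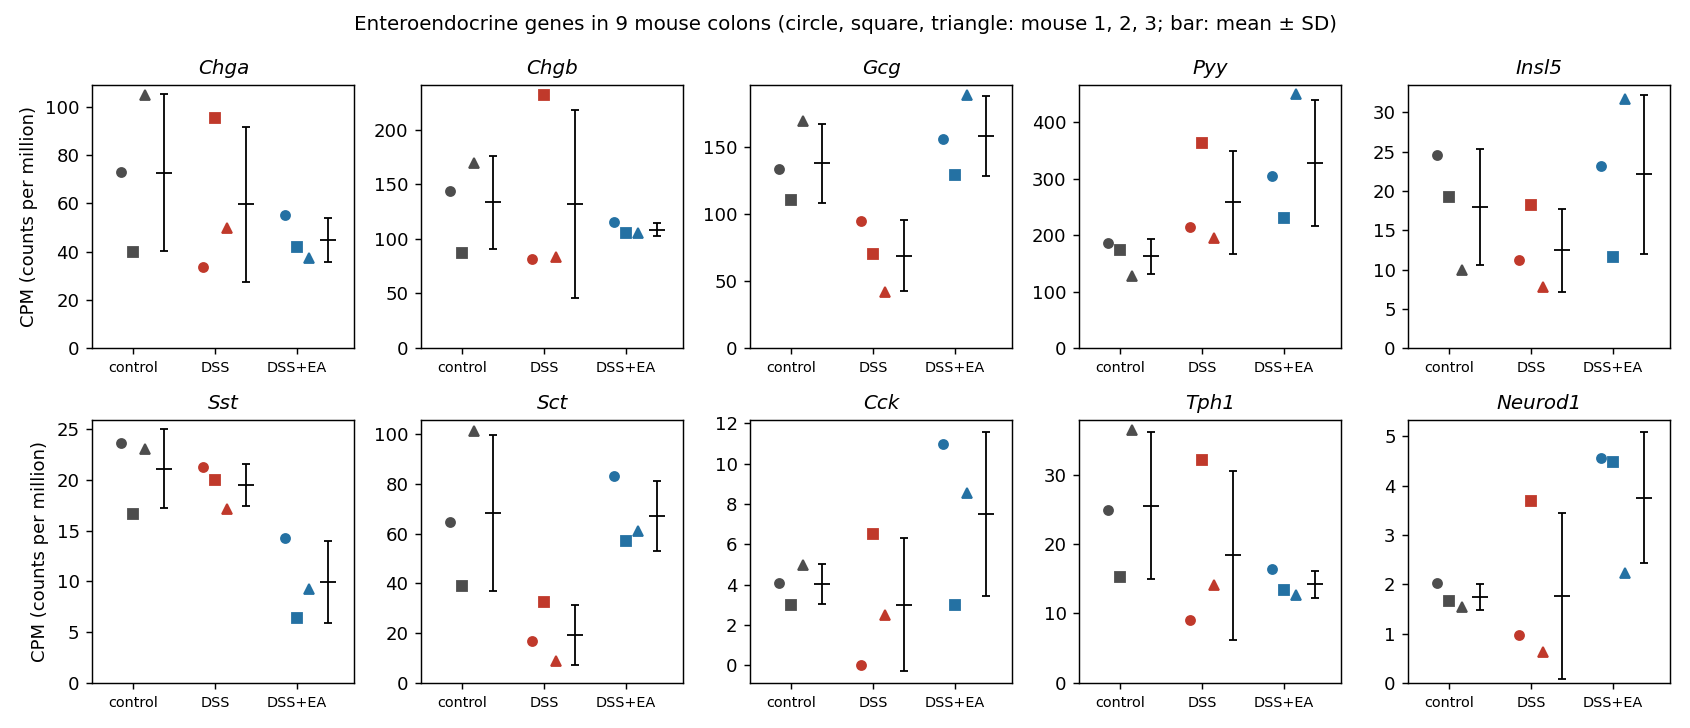
CPM of each of the 10 genes in each mouse (circles, squares and triangles for mice 1, 2 and 3 of each group), with the mean ± SD of each group beside the points. *Gcg* and *Sct* were low in all 3 DSS mice, *Sst* was low in all 3 DSS + EA mice, and DSS mouse 2 stood high for *Chga*, *Chgb*, *Pyy*, *Cck*, *Tph1* and *Neurod1*.

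Compared with the DSS group, *Gcg* and *Sct* rose and *Sst* fell in the DSS + EA group. These 3 of 10 members stand beside 35.5% of all genes tested in this comparison. No member was a DEG, beside 6.41% of all genes tested. The median log2 fold change of the members was 0.58, against -0.02 over all genes tested. Both comparisons use the same DSS libraries, so the fall of *Gcg* and *Sct* against the control group and their rise here are not independent of each other.

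*Gcg* was counted 512, 346 and 595 times in DSS + EA mice 1, 2 and 3. At 129 to 189 CPM, every one of them was above the highest DSS mouse. The mean of 158 ± 29.8 CPM (SD, n = 3) was 2.29-fold that of the DSS group (log2 fold change 1.20, SE 0.30, edgeR adjusted p = 0.0130). Without DSS + EA mouse 3 the log2 fold change was 1.03 and the edgeR adjusted p 0.0557. *Sct* was counted 273, 153 and 192 times in the DSS + EA mice. Its level of 67.0 ± 14.0 CPM (SD, n = 3) was 3.42-fold that of the DSS group without overlap (log2 fold change 1.78, SE 0.47, edgeR adjusted p = 0.0157), and without DSS + EA mouse 1 it was 1.58 with an edgeR adjusted p of 0.0510. Beside these rises, 5 of the 12 epithelial markers, 9 of the 10 markers of absorptive colonocytes and 6 of the 10 goblet markers rose as well.

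*Sst*, the somatostatin gene, moved the other way. It was counted 47, 17 and 29 times in the DSS + EA mice, at 9.95 ± 4.03 CPM (SD, n = 3), and all of them were below the lowest DSS mouse at 17.2 CPM. The log2 fold change was -0.96 (SE 0.30, edgeR adjusted p = 0.0321). This call was lost in 9 of 19 alternative analyses, among them those in which control mouse 1 or 3, DSS mouse 1 or 2, or DSS + EA mouse 2 or 3 was left out (edgeR adjusted p-values of 0.0528 to 0.106). Somatostatin is also made by enteric neurons, and 5 of 9 neuron markers tested fell in the same comparison with none rising. *Uchl1*, the most abundant of them, was counted 233, 326 and 265 times in the DSS mice and 107, 97 and 94 times in the DSS + EA mice. The part of enteric neurons in the fall of *Sst* was not tested.

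*Gcg* and *Sst* are also expressed in pancreatic islets. In DSS + EA mouse 1, where *Ins1* and *Ins2* were at 0 counts and acinar markers summed to 533 CPM against 47747 and 19674 CPM in mice 2 and 3, *Gcg* stood at 156 CPM, *Sct* at 83.1 CPM and *Sst* at 14.3 CPM. In all 3 genes this mouse was on the same side of every DSS mouse as mice 2 and 3. It was not free of acinar messages, since all 15 acinar markers in the table were counted in it. The DSS libraries had acinar sums of only 3.12 to 14.8 CPM. The part of pancreatic RNA in these values was not tested. With that mouse as the only DSS + EA library, assumed to vary like the other groups, *Gcg* had a log2 fold change of 1.19 (edgeR adjusted p = 0.130), *Sct* one of 2.11 (adjusted p = 0.0865) and *Sst* one of -0.43 (adjusted p = 0.457), so that none was called. This alternative was chosen after the data were seen.

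The other members were not called between DSS + EA and DSS mice. *Pyy* was counted 1001, 617 and 1420 times in the DSS + EA mice, at 329 ± 112 CPM (SD, n = 3), and overlapped the DSS group (log2 fold change 0.35, 95% interval -0.34 to 1.03). *Insl5* was counted 76, 31 and 100 times (0.82, SE 0.45, edgeR adjusted p = 0.176). *Cck* was counted 36, 8 and 27 times, and its log2 fold change of 1.23 had an interval from -0.50 to 2.97. The granins were tight in this group, with *Chga* counted 181, 112 and 118 times and *Chgb* 380, 281 and 331 times. *Chgb* stood at 109 ± 6.17 CPM (SD, n = 3), against 132 ± 86.2 CPM (SD, n = 3) in the DSS group. *Tph1* was counted 54, 36 and 40 times and *Neurod1* 15, 12 and 7 times. Without DSS mouse 2 the log2 fold change of *Neurod1* was 2.17 (edgeR adjusted p = 0.0216), while with all mice it was 0.96 (edgeR adjusted p = 0.212).

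Between the DSS + EA and control groups, none of the 10 members was called by edgeR, beside 3.64% of all genes tested, and none was a DEG, beside 2.08%. DESeq2 called 0 members as well. An unadjusted edgeR p under 0.05 was reached by 2 of the 10 members, beside 2135 of the 12566 genes tested. The 2 members were *Pyy* and *Sst*, whose groups did not overlap. *Pyy* was 2.02-fold higher in the DSS + EA mice (230 to 450 CPM against 128 to 186 CPM), with a log2 fold change of 1.01 (95% interval 0.32 to 1.71, edgeR adjusted p = 0.122), and it was called when these groups alone were fitted (adjusted p = 0.0404). *Sst* was 2.10-fold lower (6.35 to 14.3 CPM against 16.6 to 23.6 CPM), with a log2 fold change of -1.07 (95% interval -1.74 to -0.40, edgeR adjusted p = 0.0894). Leaving out DSS + EA mouse 1 gave -1.46 and an adjusted p of 0.0461. *Gcg* and *Sct* lay at 0.20 and -0.02, with intervals of -0.46 to 0.85 and -1.02 to 0.97. *Neurod1* did not overlap either (2.22 to 4.57 CPM against 1.53 to 2.03 CPM), with 7 to 15 against 4 to 8 counts and an edgeR adjusted p of 0.410. The median log2 fold change of the members was 0.09, against 0.00 over all genes tested.

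**Figure D3:**
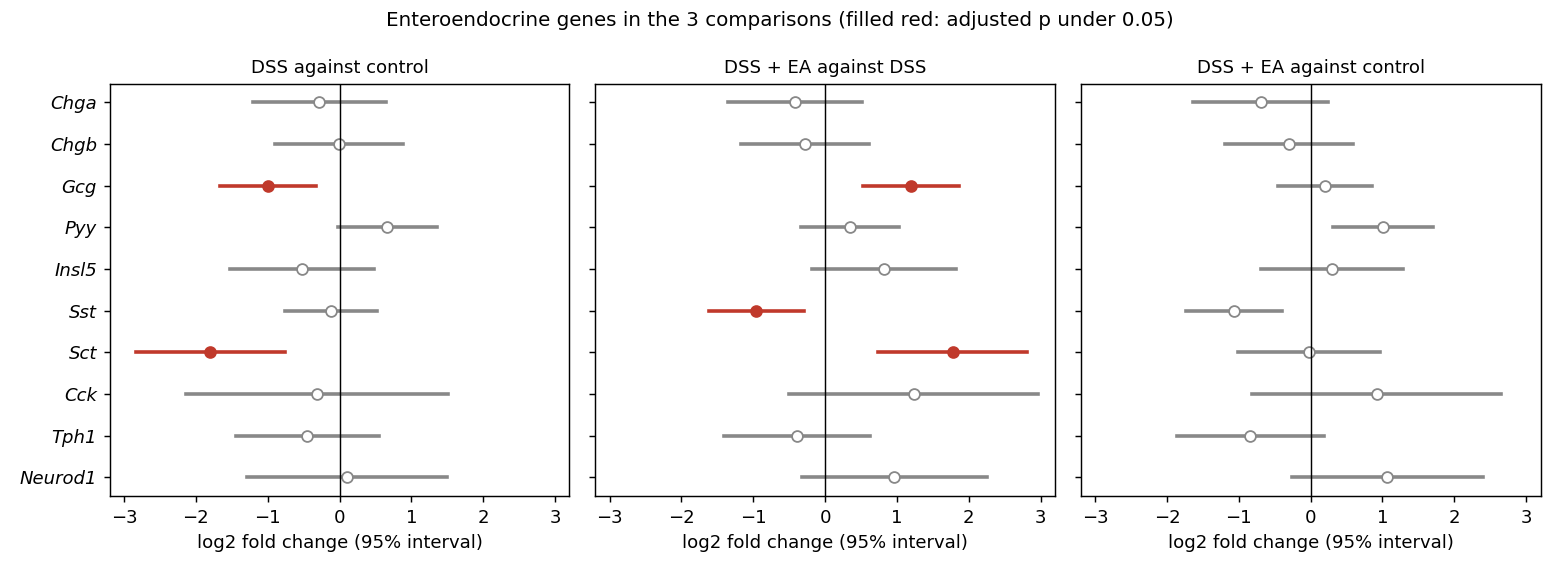
Log2 fold changes of the 10 genes with their 95% intervals in the 3 comparisons, filled red where the edgeR adjusted p was under 0.05. *Gcg* and *Sct* were called in opposite directions in the first 2 panels, *Sst* was called in DSS + EA against DSS, and no gene was called against the control group in the last panel.

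Ratios of counts within a library do not depend on how libraries are scaled against each other. The ratio of *Pyy* to *Gcg* counts, 2 peptides that L cells share, was 1.40, 1.58 and 0.755 in the control mice, 2.27, 5.18 and 4.67 in the DSS mice and 1.95, 1.78 and 2.39 in the DSS + EA mice. All DSS mice were above all control mice, a 3.21-fold difference, and so were all DSS + EA mice, a 1.71-fold difference. An exact permutation test over 3 against 3 mice, two-sided, cannot go below p = 0.1, which both differences reached (adjusted p = 0.214 over 15 tests of 5 ratios). The DSS + EA and DSS mice overlapped (exact p = 0.2).

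The ratio of *Sst* to *Gcg* separated all 3 groups. It was 0.178, 0.151 and 0.137 in the control mice, 0.225, 0.286 and 0.413 in the DSS mice and 0.0927, 0.0505 and 0.0495 in the DSS + EA mice. Relative to the control group it was 1.93-fold in the DSS group and 0.398-fold in the DSS + EA group, each at the smallest exact p of 0.1. The DSS mice were highest and the DSS + EA mice lowest. The ratio of *Chgb* to *Chga* stayed between 1.61 and 2.80 over all 9 mice, while the level of *Chga* itself ranged from 33.5 to 105 CPM. The ratio of *Tph1* to *Chga* stayed between 0.273 and 0.386, with the DSS mice at 0.829-fold and the DSS + EA mice at 0.898-fold of the control mice, in both cases all below them (exact p = 0.1 each), and the ratio of *Insl5* to *Gcg* overlapped in all 3 comparisons.

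**Figure D4:**
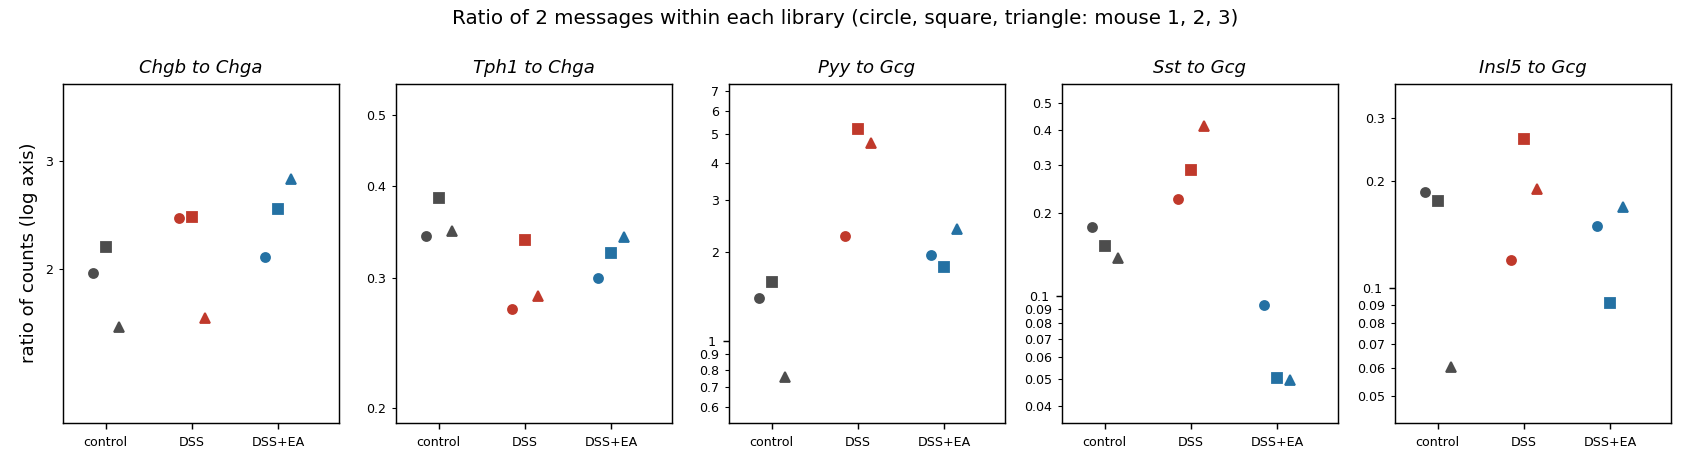
Ratios of counts of 2 genes within each library (log axes, with a range of its own in each panel), with circles, squares and triangles for mice 1, 2 and 3 of each group. *Chgb* to *Chga* and *Tph1* to *Chga* varied by 1.74-fold and 1.42-fold over the 9 mice, whereas *Pyy* to *Gcg* varied by 6.85-fold and *Sst* to *Gcg* by 8.33-fold.

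Since the epithelial share of the RNA differed between DSS mice, the members were also set against the 12 epithelial markers. This scaling moved the median log2 fold change of all genes by 1.34 in DSS against control and by -1.24 in DSS + EA against DSS, and 93.1% of the genes called in DSS against control were then higher, against 52.4% before. Per 10000 epithelial marker counts, *Gcg* was 98.5 to 136 in the control mice, 86.0, 151 and 156 in DSS mice 1, 2 and 3, and 125 to 173 in the DSS + EA mice. The groups overlapped, and neither the fall of *Gcg* (log2 fold change 0.15) nor that of *Sct* (-0.56, edgeR adjusted p = 0.398) was called on this scale, nor were their rises with EA (0.15 and 0.65).

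*Pyy* and *Chgb* were the members called as higher in the DSS group on this scale, with log2 fold changes of 2.01 (edgeR adjusted p = 0.00534) and 1.37 (adjusted p = 0.0449), the first above and the second near the shift of the median gene. *Pyy* was 103 to 165 per 10000 epithelial marker counts in the control mice and 195, 782 and 731 in DSS mice 1, 2 and 3. *Chga* was 35.5 to 84.7 in the control mice and 30.3, 205 and 186 in DSS mice 1, 2 and 3. In *Pyy* and *Chga*, DSS mouse 1, whose epithelial markers were at the level of the controls, stood far from the other DSS mice. Against the DSS group, *Chga*, *Chgb*, *Tph1* and *Sst* were called as lower in the DSS + EA group on this scale. These 4 of 10 members stand beside 5473 of 12566 genes tested that were called as lower. *Chga* stood at -1.77, *Chgb* at -1.56, *Tph1* at -1.71 and *Sst* at -2.18, beside the shift of -1.24.

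Other epithelial lineages are given for comparison. In DSS against control, all 10 goblet markers fell (median -3.16 on the log2 scale), and 8 of the 10 absorptive colonocyte markers fell (median -1.88), while the median of the 10 enteroendocrine genes was -0.30. The last value depended on DSS mouse 2. Without that mouse the median was -2.98 for goblet markers, -1.76 for colonocyte markers and -0.95 for the enteroendocrine genes. Over all genes tested it was then -0.02. *Spink4*, the most abundant goblet marker, was counted 27575, 47321 and 21749 times in the control mice and 7691, 3580 and 923 times in the DSS mice. Per epithelial marker count, all 10 goblet markers were still called as lower (median -2.46) and 5 colonocyte markers (median -1.02), while the median of the 10 enteroendocrine genes was 1.15, against 1.38 over all genes tested. *Lypd8*, the most abundant colonocyte marker, was counted 26706, 20584 and 22725 times in the control mice, 22626, 11890 and 4789 times in the DSS mice and 48533, 35028 and 47861 times in the DSS + EA mice. These medians were not tested against each other.

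The remaining marker lists bear on cells that could share messages with the members. *S100a8*, the leading leukocyte marker, was counted 1 to 6 times per control library, 5379, 72682 and 61439 times in DSS mice 1, 2 and 3, and 1176 to 2115 times per DSS + EA library, so that DSS mouse 1 held the fewest of its group. Of 10 markers of smooth muscle and stroma 4 rose and 5 fell in the DSS group, with *Dcn* counted 767 to 1002 times per control library and 6756 to 10370 times per DSS library. In the same comparison the mast cell list, led by *Kit*, had 1 marker higher and 1 lower of 3 tested. The islet list had 1 higher of 2 tested, which was *Ppy*, a gene that is also on the list of other gut peptides. The other, *Ttr*, was not called, with means of 50.7 CPM in the control group and 13.2 CPM in the DSS group.  All 3 small intestine markers tested rose with EA. *Fabp6* was counted 253, 412 and 87 times in the DSS + EA mice against 12 to 42 times in the DSS mice. Of these 3 markers, 2 were called as lower in DSS against control, and 1 as higher in DSS + EA against control. Mean CPM of *Rbp2* in control, DSS and DSS + EA mice was 35.7, 11.2 and 39.4. In the same order it was 6.63, 0.753 and 7.76 for *Alpi*, and 9.06, 6.83 and 86.2 for *Fabp6*. *Try5*, the leading acinar marker, was counted 150, 22189 and 5711 times in the DSS + EA mice. The part of small intestinal tissue in the values of *Sct* and *Cck* was not tested.

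Of the 20 other transcription factors of the secretory and enteroendocrine lineage, only 6 had enough counts to be tested. *Atoh1*, which commits epithelial cells to the secretory fate, was counted 147, 95 and 101 times in the control mice, 0, 2 and 0 times in the DSS mice and 99, 73 and 105 times in the DSS + EA mice. Against a floor of 3 counts per library it was lower by at least 42.2-fold in DSS mice than in control mice (edgeR adjusted p = 1.61e-05), and DSS + EA mice stood at least 35.5-fold higher than DSS mice (adjusted p = 0.00011). *Foxa2*, counted 23, 5 and 10 times in the controls and 0, 3 and 0 times in the DSS mice, fell by at least 4.44-fold. *Isl1*, a factor of endocrine cells and of neurons, was the only one that rose in the DSS group (log2 fold change 1.73, SE 0.49, edgeR adjusted p = 0.0185) and it fell with EA (-2.32). Without DSS mouse 2, none of the 6 rose and 3 fell. *Sox4* did not pass the test in either comparison (0.01 and -0.41).

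Of 15 other gut peptides, 9 were tested, of which 7 rose (*Penk*, *Tac1*, *Vip*, *Npy*, *Cartpt*, *Gal* and *Ppy*) and 2 fell (*Nts* and *Grp*) in the DSS group, beside 40.9% of all genes tested that were called in either direction. With EA, 6 of the 9 fell and 1 rose. Without DSS mouse 2, 6 rose and 3 fell of 11 tested, and with DSS + EA mouse 1 as the only library of its group, 2 of 11 fell and 1 rose with EA. Per epithelial marker count, 7 of the 9 were called as higher and 1 as lower in the DSS group. *Penk*, which encodes enkephalins, was counted 88, 80 and 67 times in the control mice, 389, 512 and 523 times in the DSS mice and 117, 115 and 122 times in the DSS + EA mice (log2 fold changes 2.42 and -1.77). *Tac1*, the substance P gene, rose by 1.79 on the log2 scale, and *Npy* fell by 3.00 on the log2 scale with EA. *Penk*, *Vip*, *Npy*, *Cartpt*, *Gal* and *Tac1* are peptides of enteric neurons, and 4 of 9 neuron markers tested rose in the DSS group as well (median 0.71 on the log2 scale). The part of neurons in these rises was not tested.

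*Nts*, the neurotensin gene of an enteroendocrine population, went the other way. It was counted 109, 26 and 150 times in the control mice, 4, 5 and 4 times in the DSS mice and 153, 97 and 73 times in the DSS + EA mice. The DSS group was far below both others without overlap, with log2 fold changes of -4.66 (SE 0.70, edgeR adjusted p = 0.000836) against control and 4.84 (SE 0.70, adjusted p = 0.0012) for DSS + EA against DSS. *Grp* fell by 1.58 on the log2 scale in the DSS group. *Ppy*, the pancreatic polypeptide gene and a close relative of *Pyy*, was counted 114, 51 and 54 times in the control mice and 97, 463 and 120 times in the DSS mice (log2 fold change 1.34, edgeR adjusted p = 0.042). DSS mouse 2 stood far above the others. The call was lost in 10 of 19 alternative analyses, among them those without DSS mouse 2 (0.64, edgeR adjusted p = 0.189) and with library totals (1.41, edgeR adjusted p = 0.0517), and the adjusted p ranged from 0.00237 to 0.189. Insulin genes were at 0 counts in these 6 libraries. *Ppy* was not called with EA (-0.47).

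**Figure D5:**
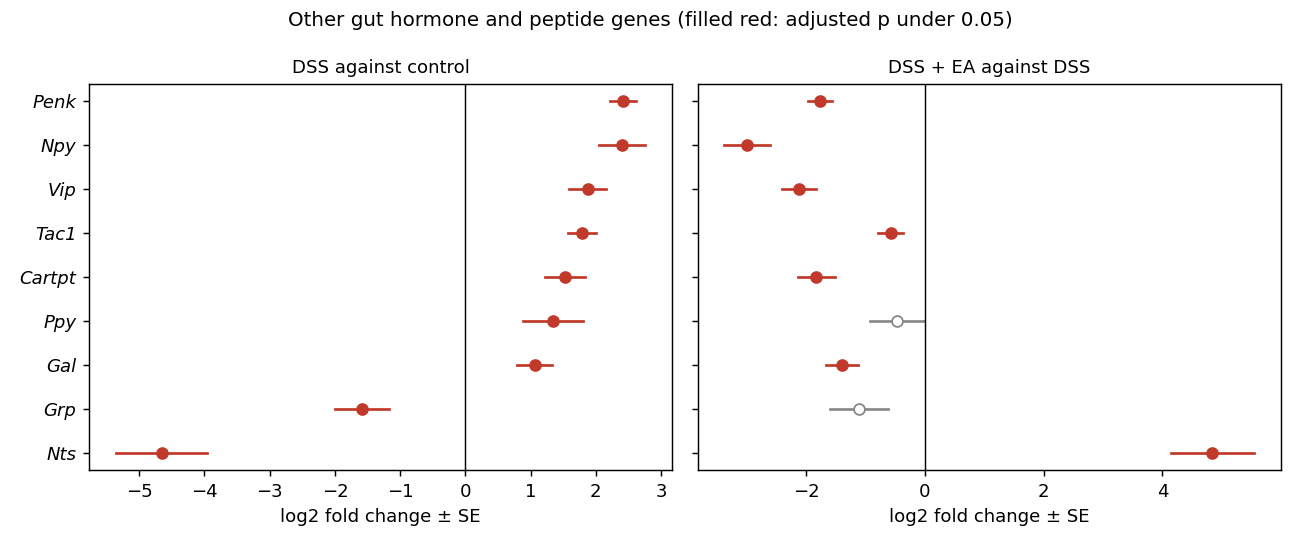
Log2 fold changes ± SE of the 9 other gut hormone and peptide genes that were tested, in DSS against control and in DSS + EA against DSS, filled red where the edgeR adjusted p was under 0.05. *Nts* and *Grp* fell and 7 genes rose in the DSS group, and *Nts* was the only gene of the 9 that rose with EA.

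Of 27 genes of granules and prohormone processing, 20 were tested. In the DSS group 3 rose (*Syt13*, *Scg5* and *Pcsk2*) and 5 fell (*Rph3al*, *Ddc*, *Pcsk1*, *Aldh1a1* and *Syt7*). Per epithelial marker count, which moved the median of all genes by 1.34 on the log2 scale, 10 of the 20 were called as higher and none as lower. The prohormone convertases that cut hormone precursors differed in direction before that scaling, with *Pcsk1* at -1.53 and *Pcsk2* at 1.28 on the log2 scale. *Rph3al*, a granule protein, fell by 2.45, and *Ddc*, which makes serotonin from the product of TPH1, fell by 1.26 (edgeR adjusted p = 0.00379), while *Syt13* rose by 1.49 and *Scg5*, the chaperone of PCSK2, rose by 1.09. *Scg2* did not pass the test in that comparison (0.20). With EA, 9 of the 20 fell, *Rab3c* (-1.68) and *Scg5* (-1.06) among them, and *Aldh1a1* alone rose (1.48, edgeR adjusted p = 0.0397), while *Pam* was not called (-0.51). Without DSS mouse 2, 6 fell and none rose with EA, and with DSS + EA mouse 1 as the only library of its group none was called.

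Of 20 sensors of nutrients and bile acids, 5 were tested, and 3 of them fell in the DSS group. *Ffar2*, a receptor of short-chain fatty acids, was counted 145, 89 and 98 times in the control mice, 24, 11 and 3 times in the DSS mice and 72, 45 and 77 times in the DSS + EA mice, with log2 fold changes of -3.26 and 2.54. *Ffar2* is also expressed in leukocytes, whose markers rose (8 of 9 tested) in the DSS group. *Slc15a1*, the peptide transporter, fell by 2.66 on the log2 scale and was not called with EA (1.72). *Ffar4*, a receptor of long-chain fatty acids, fell by 2.36 and rose by 2.76 with EA. Per epithelial marker count 2 of the 5 were called as lower in the DSS group and 1 as higher, and with DSS + EA mouse 1 alone 1 of 7 rose with EA. The glucose transporter gene *Slc5a1* was not called in the DSS group (-0.97).

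Of 25 receptors and genes of hormone transport and breakdown, 8 were tested. In the DSS group *Htr3a* and *Anpep* rose and *Npy4r*, *Maoa*, *Sstr1* and *Maob* fell, and with EA 4 rose and 1 fell (1 and 1 per epithelial marker count, and 1 and 0 of 9 with DSS + EA mouse 1 alone). *Htr3a*, a serotonin receptor of neurons, was counted 21, 10 and 4 times in the control mice, 45, 90 and 64 times in the DSS mice and 10, 14 and 16 times in the DSS + EA mice (2.34 and -2.02 on the log2 scale). *Anpep* rose by 1.65 in the DSS group. *Npy4r*, a receptor of pancreatic polypeptide, was counted 20, 14 and 16 times in the controls and 1, 1 and 0 times in the DSS mice, at least 6.22-fold lower against the floor. *Maoa*, which breaks down serotonin, fell by 1.94. *Dpp4*, which inactivates glucagon-like peptides, was not called in the DSS group (-1.19, edgeR adjusted p = 0.051) and rose by 1.79 with EA, and *Maob* was not called with EA (1.03).

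The mean profile of the 10 members over the 9 mice was most like those of *Cdca5*, *Vars*, *Nelfe*, *Ube2c* and *Ncapd2*. Their root mean square distances were 0.174 to 0.217 on the log2 scale, against a median of 0.640 over 11037 genes. The members themselves lay farther from their mean profile, from 0.317 for *Chgb* to 0.830 for *Cck*. *Sst* (0.728) and *Sct* (0.721) were also beyond the median of all genes. The mean profile is therefore not that of any single member.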

How the data were processed

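Total RNA of 9 mouse colons was measured, 1 library per mouse (PCR-amplified full-length cDNA on a Nanopore PromethION). The authors deposited raw read counts per gene as whole numbers. The submitters' processing notes name the build mm10; the aligner, the counter, the annotation and the use of strand are not given in the sources used here. Of the lines in the table, 14 held no counts and were skipped, which left 27719 genes. Replicates are separate mice.

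Tests were made with edgeR 4.0.16 under R 4.3.3 (TMM, filterByExpr, prior count 0.125, glmQLFTest). All 9 libraries entered a single fit without covariates other than group, and p-values were adjusted by Benjamini-Hochberg over 12566 genes. SE is the log2 fold change divided by the square root of F, and 95% intervals follow from it. Ratios used an offset of 0.5 counts on the log2 scale. On simulated counts for DSS against control over 12163 genes, edgeR recovered 87.5% of changes of 2 and 95% of changes of 3 on the log2 scale. Only these sizes were simulated, with the same dispersion for every gene. The called changes of the members in the main analysis were smaller, so recovery at their size was not measured. Alternatives were DESeq2 1.42.0, RLE factors, library totals, other filters, a prior count of 2, fits of the 2 groups compared, a replicate block, scaling to epithelial markers and each mouse left out. Positions were read from GENCODE M21 and promoters from RefSeq with Python 3.11.15, and figures were drawn with matplotlib 3.10.9. 

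The members and the gene lists were chosen with earlier results of these data known. Named were all members, from each list of other genes at most 2 rising and 2 falling genes of lowest P in the first 2 comparisons and the most abundant gene not called, and the most abundant gene of each marker list, of which 1 list is not reported here. A few genes outside this rule, such as *Vip*, *Pcsk1*, *Pcsk2*, *Cpa3*, *Clps* and *Ins2*, were named after their values were seen.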

Additional observations from a re-analysis of the deposited data

How the results depend on the processing

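Of 562 values of a member under an alternative, 532 stayed on the same side of the threshold, 20 lost a call, 8 gained a call, and 2 that were called in one of the analyses changed sign. The number of members called in DSS against control was 1 to 2 when single mice were left out (1 without control mouse 1, control mouse 3 or DSS mouse 3). In DSS + EA against DSS it was 1 to 3 (1 without DSS + EA mouse 3), and 0 without DSS + EA mice 2 and 3. In DSS + EA against control it was 0 to 1, and 1 when only the groups compared were fitted. The called values that changed sign were those of *Chgb* (1.37) and *Gcg* (0.15) in DSS against control per epithelial marker count. Another 31 values, called in neither analysis, also changed sign. Over both kinds, 12 sign changes came with that scaling, 15 with single mice left out, such as *Neurod1* in DSS against control without DSS mouse 2 (-1.10), and 6 with other settings. That scaling called 2 and 4 members in the first 2 comparisons, *Gcg* and *Sct* not among them. It called 6553 and 5867 of all 12566 genes tested. DESeq2, RLE factors and library totals called 2, 3 and 0 members, as in the main analysis.

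Same-numbered mice are different animals, and their deviations from the group means had correlations between -0.16 and 0.105 over 9 pairs, so the numbers were treated as names. With the replicate block, 2, 3 and 0 members were called, and 4543, 3829 and 364 genes in all, against 5144, 4457 and 457 without it. The total called in DSS + EA against control moved most, to 1149 when only these groups were fitted, 697 with DESeq2, 215 per epithelial marker count, 54 without DSS + EA mice 2 and 3, and 110 to 772 when single mice were left out. In DSS + EA against DSS it was 807 without DSS + EA mice 2 and 3. The cause was not tested. With 2 to 17 counts for *Neurod1* and 0 to 36 for *Cck*, both were limited by depth.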
